A study of Homo sapiens with 9 samples.

Results

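The 9 genes described here encode the sensors that recognise DNA in the cytosol and the enzymes that clear nucleic acids before they are sensed. They were chosen by symbol and not by their values, and all 9 were found among the 29972 genes of the deposited table, with cGAS written as MB21D1 and STING as TMEM173. They were measured in H2030, a line established from a human non-small cell lung tumour, by RNA sequencing of total RNA depleted of ribosomal RNA. Cells of all groups were transfected with a lipid reagent and siRNA at 20 nmol/L. The control group received a non-targeting pool, the siMENA11a group a mix of 3 siRNAs against exon 11a of ENAH, and the siMENA group a commercial pool against ENAH as a whole. ENAH encodes the actin regulator hMENA, and hMENA11a is its isoform with exon 11a. Each group had 3 libraries, and the labels do not say whether these came from separate cultures. A p-value here reflects the variation among libraries within groups, estimated over all 9 libraries and drawn towards that of other genes. That variation could be technical. The control pool and the ENAH pool come from different reagent lines, the cells come from 1 line, and the time from transfection to harvest is not given in the sources used here.

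cGAS binds double-stranded DNA in the cytosol and makes a cyclic dinucleotide that activates STING on the endoplasmic reticulum. STING then recruits the kinase TBK1, which phosphorylates IRF3, and genes of type I interferon are switched on. IFI16 and AIM2 belong to the PYHIN family of DNA-binding proteins, of which AIM2 assembles an inflammasome. TREX1 degrades DNA ends in the cytosol, SAMHD1 cleaves deoxynucleotides and limits reverse transcription, and RNase H2, a complex of the subunits RNASEH2A, RNASEH2B and RNASEH2C, removes ribonucleotides from DNA. Inherited loss of TREX1, SAMHD1 or an RNase H2 subunit causes Aicardi-Goutieres syndrome, a disease with high interferon, and both IFI16 and SAMHD1 are known as interferon-stimulated genes.

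Values are TPM (transcripts scaled to a fixed total per library, per length) divided by a size factor per library, called scaled TPM below. Levels of different genes can thus be set side by side. Fold changes and their standard errors come from limma on log2(scaled TPM + 0.5), which understates the change of low genes. A gene was called where its limma p, adjusted over all 13498 genes tested, was under 0.05. Of the 9 genes, 7 passed the filter at a mean of 0.5 scaled TPM, and TMEM173 and AIM2 did not. Size factors were 0.886 to 0.973 in siMENA11a and 0.995 to 1.09 in the other libraries, while RN7SL transcripts took 44.3% to 45.2% of TPM in siMENA11a and 39.6% to 41.1% elsewhere. Without size factors the median log2 fold change of all genes tested was -0.11 for siMENA11a against control, 0.086 for siMENA against control and -0.20 for siMENA11a against siMENA. ENAH itself had 6.88 to 7.48 scaled TPM in siMENA and 43.2 to 48.7 in the other libraries, and a value summed over isoforms does not check the label of siMENA11a. No read counts were used, and since TPM carries no trace of sequencing depth, that depth is unknown for every library.

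The labelled epithelial tumour origin was set beside markers. Of 8 epithelial markers, 5 had a mean of at least 1 scaled TPM in each group, led by KRT18 and KRT8, while the adhesion gene CDH1 stayed at or below 0.129 and KRT19 at or below 0.050. Of 12 leukocyte markers, CD3E, CD2, MS4A1 and NKG7 were listed at 0 in all 9 libraries and PTPRC reached 0.066 at most. The summed leukocyte level ranged over 97.4 to 105.1 for control libraries, 125.7 to 131.3 for siMENA11a and 41.3 to 49.6 for siMENA, nearly all of it from CD68, a lysosomal gene at 40.3 to 129.0. The order of the groups in that sum, and in CD14, was that of SAMHD1 (below) and not that of IFI16, while the lymphocyte markers and PTPRC were at or near 0 throughout. The summed level of 6 fibroblast markers spanned 8.81 to 9.39 scaled TPM among control libraries, 7.81 to 8.20 with siMENA11a and 15.4 to 17.2 with siMENA, most of it from the collagen gene COL1A1, which at 6.25 to 15.6 lay above EPCAM (1.19 to 3.38). That of 5 endothelial markers spanned 0.513 to 0.672, 0.550 to 0.587 and 0.973 to 1.18 in the same order, most of it from CDH5. These sums were highest in siMENA, as was RNASEH2B, and their part in any result was not tested.

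In control cells RNASEH2A had the highest level of the 9 genes, 50.4 ± 1.51 scaled TPM (SD, n = 3), which lay above 88.6% of genes tested. SAMHD1 followed with 17.5 ± 0.219, then RNASEH2C with 15.4 ± 0.463, TREX1 with 13.0 ± 0.801, IFI16 with 11.2 ± 0.511, MB21D1 with 10.8 ± 0.918 and RNASEH2B with 7.73 ± 0.516. Neighbours in this order did not overlap between libraries, except IFI16 at 10.7 to 11.7 and MB21D1 at 10.2 to 11.9. After the exon 11a siRNA the order changed at its top: SAMHD1 (35.2 ± 2.31), IFI16 (35.0 ± 2.14) and RNASEH2A (32.8 ± 1.79) had overlapping libraries, and the next gene, RNASEH2C, stood at 10.5 ± 0.578. In siMENA cells the order was RNASEH2A (40.8 ± 1.09), SAMHD1 (14.1 ± 0.169), RNASEH2C (12.8 ± 0.437), IFI16 (12.1 ± 0.398), MB21D1 (10.3 ± 0.303), TREX1 (9.97 ± 0.295) and RNASEH2B (9.53 ± 1.12). There IFI16 overlapped with RNASEH2C, and MB21D1, TREX1 and RNASEH2B overlapped with each other.

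**Figure D1:**
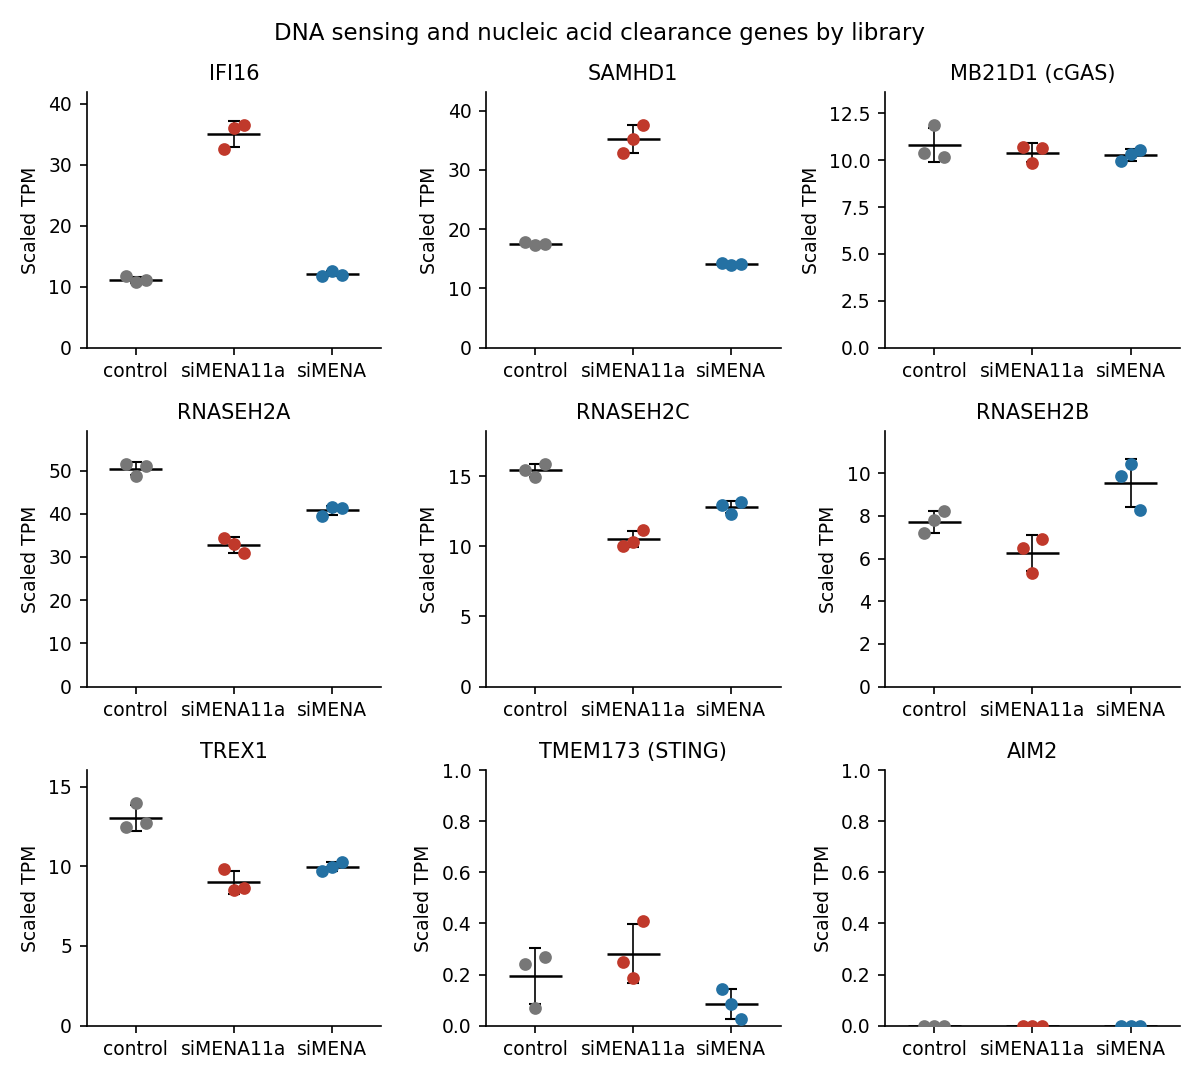
Scaled TPM (y axis, from 0) of the 9 genes in each of the 9 libraries, by group (x axis), with 1 point per library, the line at the mean and the bar at 1 SD (n = 3). IFI16 and SAMHD1 sit highest in siMENA11a, RNASEH2A, RNASEH2C and TREX1 highest in control, and TMEM173 and AIM2 stay below 0.5 everywhere.

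Transcripts of the sensor cGAS were present and those of its adaptor STING were close to the floor in this line, and protein was not measured. MB21D1 had 10.4, 11.9 and 10.2 scaled TPM in control libraries 1, 2 and 3, 10.7, 9.83 and 10.7 in siMENA11a and 9.95, 10.3 and 10.6 in siMENA. The 3 groups overlapped, and no comparison was called. The log2 difference from control was -0.050 (95% interval -0.19 to 0.091, limma adjusted p = 0.528) for siMENA11a and -0.066 (-0.21 to 0.075, adjusted p = 0.415) for siMENA. Changes of the size that these intervals span remain possible, so the levels were not shown to be alike. TMEM173 was listed at 0.241, 0.067 and 0.270 scaled TPM in control, 0.248, 0.187 and 0.411 in siMENA11a and 0.142, 0.084 and 0.028 in siMENA. With no filter on low values, none of the differences of TMEM173 was called (adjusted p = 0.406 for siMENA11a against control, 0.274 for siMENA against control and 0.051 between the 2 knockdowns). In control the mean of MB21D1 was above 53.8% of genes tested, whereas TMEM173 did not reach the filter in any group. MB21D1 and the opposite-strand gene DDX43 share 180 of 4155 exon bases of MB21D1 in GENCODE 29.

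AIM2 was listed at 0 in all 9 libraries, and so were its relatives PYHIN1 and MNDA, while the remaining family member IFI16 was expressed. IFI16, a sensor of DNA that is found largely in the nucleus, had 11.7, 10.7 and 11.1 scaled TPM in control, 32.5, 36.0 and 36.4 in siMENA11a and 11.8, 12.5 and 12.0 in siMENA. All siMENA11a libraries lay well above all others. IFI16 rose by 1.61 ± 0.054 on the log2 scale in siMENA11a against control (limma adjusted p = 6.05e-08) and was 1.49 ± 0.054 higher than in siMENA (adjusted p = 4.5e-08). These SE compare 3 against 3 libraries, with the spread taken from the fit of all 9 libraries. In siMENA against control the log2 difference was 0.11 (95% interval -0.0071 to 0.23, adjusted p = 0.109) although the libraries did not overlap. That difference was called in TPM as deposited (0.20, adjusted p = 0.0468) and after TPM was rescaled over genes other than small RNAs (0.21, adjusted p = 0.00883).

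SAMHD1 was the other gene that rose after the exon 11a siRNA, and it moved the opposite way after the siRNA against all ENAH. Its levels were 17.8, 17.3 and 17.5 scaled TPM in control, 32.9, 35.2 and 37.5 in siMENA11a and 14.3, 13.9 and 14.1 in siMENA. No libraries of different groups overlapped. SAMHD1 rose by 0.98 ± 0.046 on the log2 scale in siMENA11a (limma adjusted p = 2.91e-07), a 1.98-fold change, and fell by 0.30 ± 0.046 in siMENA (adjusted p = 0.000509). Between the knockdowns it was 1.29 ± 0.046 higher in siMENA11a (adjusted p = 4.5e-08). Within a library the ratio of IFI16 to SAMHD1, which no size factor touches, was 0.636 ± 0.021 in control, 0.994 ± 0.025 in siMENA11a and 0.859 ± 0.038 in siMENA (SD, n = 3), with no overlap between groups. SAMHD1 shares 1159 of 11261 exon bases with TLDC2 on the opposite strand in GENCODE 29, and the authors' use of strand is not given in the sources used here.

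The promoters of IFI16, SAMHD1 and AIM2 are shown because IFI16 and SAMHD1 rose together while AIM2, which lies near IFI16 on chromosome 1, stayed at 0. Each sequence is the 250 bases before a RefSeq gene start on GRCh38.p14, 5′ to 3′ on the gene's strand. IFI16 has 2 starts in the RefSeq table, with windows at chr1:159008741-159008990 and chr1:159009657-159009906 on the plus strand. The SAMHD1 window is chr20:36951709-36951958 and the AIM2 window chr1:159076767-159077016, both on the minus strand. The motifs searched on both strands were the core of the interferon-stimulated response element (GAAA, any 2 bases, GAAA), TTCNNNGAA, the element bound by STAT dimers, CCAAT, the CCAAT box, and GGGCGG, the GC box. Capitals mark matches of the first 3 motifs.
IFI16 start 1: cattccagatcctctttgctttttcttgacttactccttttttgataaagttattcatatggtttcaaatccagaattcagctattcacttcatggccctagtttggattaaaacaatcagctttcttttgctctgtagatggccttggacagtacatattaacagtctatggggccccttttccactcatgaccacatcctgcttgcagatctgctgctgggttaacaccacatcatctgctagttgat
IFI16 start 2: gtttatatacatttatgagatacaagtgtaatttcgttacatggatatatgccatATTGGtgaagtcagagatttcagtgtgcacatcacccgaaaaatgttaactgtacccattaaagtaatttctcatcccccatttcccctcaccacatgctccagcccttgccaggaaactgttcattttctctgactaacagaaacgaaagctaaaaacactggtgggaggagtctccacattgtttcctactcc
SAMHD1: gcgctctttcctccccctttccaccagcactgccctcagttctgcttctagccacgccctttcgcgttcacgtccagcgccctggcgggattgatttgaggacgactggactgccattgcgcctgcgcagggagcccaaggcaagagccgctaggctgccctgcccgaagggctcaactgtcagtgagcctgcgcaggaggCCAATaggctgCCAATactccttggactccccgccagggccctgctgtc
AIM2: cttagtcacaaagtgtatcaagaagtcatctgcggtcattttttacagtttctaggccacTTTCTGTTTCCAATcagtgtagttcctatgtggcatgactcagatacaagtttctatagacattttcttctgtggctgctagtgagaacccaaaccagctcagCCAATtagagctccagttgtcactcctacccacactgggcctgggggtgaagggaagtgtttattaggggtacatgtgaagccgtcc
In the AIM2 window the response element core lies on the minus strand at -190 to -181 and shares 1 base with a CCAAT box at -181 to -177, and a further CCAAT box stands at -87 to -83, counted from the gene start. SAMHD1 holds 2 CCAAT boxes, at -49 to -45 and -38 to -34, and the second IFI16 window holds 1 on the minus strand. Neither IFI16 nor SAMHD1 holds the response element core or the STAT element in these windows, which says only that these letters are not there. Of 35116 windows of this length in the table, 3.02% hold the response element core, 6.57% the STAT element, 32.0% a CCAAT box and 42.6% a GC box. The table held windows for 7 of the 9 genes, without MB21D1 and TMEM173.

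Of the RNase H2 subunits, RNASEH2A and RNASEH2C were lower in siMENA11a than in control, and RNASEH2B is described below. RNASEH2A, the catalytic subunit, had 51.4, 48.7 and 51.1 scaled TPM in control, 34.4, 33.0 and 30.9 in siMENA11a and 39.5, 41.6 and 41.3 in siMENA. The 3 groups were fully separate, with siMENA between the other 2. RNASEH2A fell by 0.62 ± 0.044 on the log2 scale in siMENA11a (limma adjusted p = 3.57e-06) and by 0.30 ± 0.044 in siMENA (adjusted p = 0.000409), and it was lower in siMENA11a than in siMENA (-0.31 ± 0.044, adjusted p = 0.00021). RNASEH2C, a structural subunit, had 15.5, 14.9 and 15.8 scaled TPM in control, 10.1, 10.3 and 11.2 in siMENA11a and 12.9, 12.3 and 13.2 in siMENA. Its groups were separate in the same order. RNASEH2C fell by 0.53 ± 0.049 in siMENA11a (adjusted p = 1.74e-05) and by 0.26 ± 0.049 in siMENA (adjusted p = 0.00202), and the direct difference was -0.27 ± 0.049 (adjusted p = 0.000963). The siMENA call of RNASEH2C ended in TPM as deposited (-0.18, adjusted p = 0.0656).

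RNASEH2B, the subunit that binds the replication clamp PCNA, did not follow the other 2 subunits in siMENA. It had 7.19, 7.80 and 8.21 scaled TPM in control, 6.52, 5.33 and 6.94 in siMENA11a and 9.90, 10.4 and 8.27 in siMENA. The siMENA libraries were the highest and the siMENA11a libraries the lowest, with a gap of under 0.1 scaled TPM between control and the nearest siMENA library. RNASEH2B fell by 0.29 ± 0.11 in siMENA11a against control, a call that rested on its setting (limma adjusted p = 0.0425). The call ended under 9 of 20 other settings, 5 of which leave out a library. The limma adjusted p was 0.153 without siMENA11a 2 (log2 difference -0.18) and 0.124 without control 3 (-0.25). It was 0.0931 without control 2 (-0.28), 0.0588 without siMENA11a 1 (-0.32) and 0.0525 without siMENA 1 (-0.29). In siMENA against control its log2 difference was 0.28 (95% interval 0.041 to 0.52, adjusted p = 0.0527), and it was called under 8 of 20 other settings. The difference between the knockdowns was -0.57 ± 0.11 (adjusted p = 0.00124) and was called under all 20.

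Ratios of the subunits within a library need no size factor. RNASEH2A to RNASEH2C stood at 3.23 to 3.33 among control libraries, 2.76 to 3.42 with siMENA11a and 3.06 to 3.37 with siMENA, so the groups overlapped. RNASEH2A to RNASEH2B spanned 6.23 to 7.16 among control libraries, 4.45 to 6.19 with siMENA11a and 3.99 to 4.99 with siMENA. RNASEH2C to RNASEH2B spanned 1.91 to 2.15 among control libraries, 1.54 to 1.94 with siMENA11a and 1.18 to 1.59 with siMENA. For both ratios to RNASEH2B the siMENA libraries lay below all control libraries. The siMENA11a libraries did so for RNASEH2A to RNASEH2B, by a narrow gap (6.19 against 6.23), and overlapped with control for RNASEH2C to RNASEH2B. These ratios were looked at after the levels were known and were not tested.

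**Figure D2:**
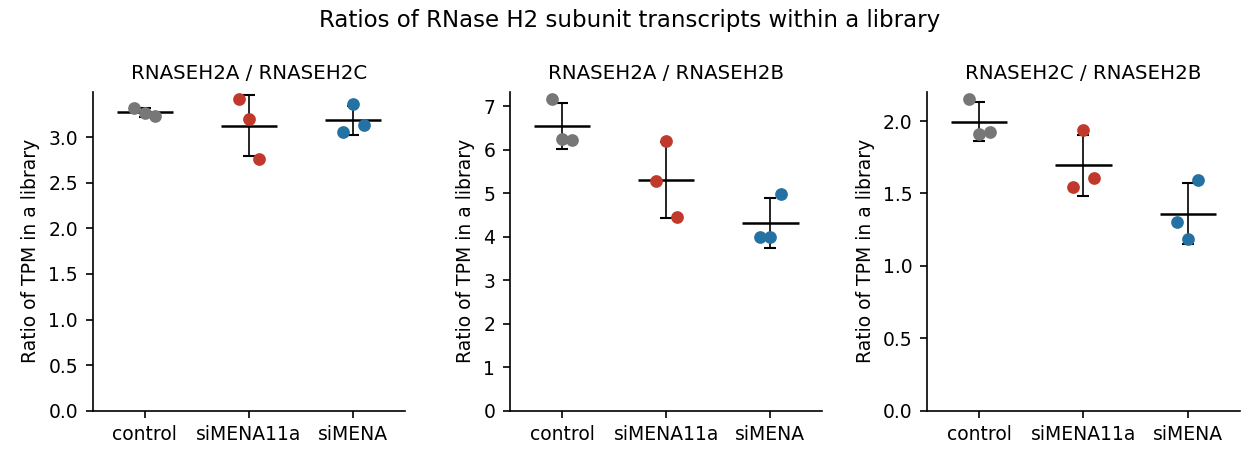
Ratio of the TPM of 2 RNase H2 subunits within a library (y axis, from 0) by group (x axis), with 1 point per library, the line at the mean and the bar at 1 SD (n = 3). RNASEH2A to RNASEH2C overlaps between groups, and both ratios to RNASEH2B are lower in siMENA than in control. In siMENA11a RNASEH2A to RNASEH2B also lies below control, by a narrow gap, and RNASEH2C to RNASEH2B overlaps with control.

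Neighbouring genes could share reads with the subunits. RNASEH2A shares 1123 of 3645 exon bases with THSD8 on its own strand and none with HOOK2, whose body covers it on the opposite strand. HOOK2 rose by 0.39 in siMENA11a (limma adjusted p = 0.00446), opposite to RNASEH2A. RNASEH2C shares 1439 of 5101 exon bases with KAT5 on the opposite strand, and KAT5 had 15.3 scaled TPM in control and 14.6 in siMENA11a (adjusted p = 0.415). RNASEH2B shares 282 of 26291 exon bases with RNASEH2B-AS1 and 21 with GUCY1B2, both on the opposite strand. The libraries were stranded, but whether strand was used for the TPM values is not given in the sources used here. How reads of the opposite-strand pairs were split is thus unknown, and strand does not separate RNASEH2A from THSD8.

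The promoter of RNASEH2A is shown as that of the most abundant of the genes that fell, from chr19:12806334-12806583 on the plus strand of GRCh38.p14, with the CCAAT box on the minus strand at -13 to -9 in capitals.
RNASEH2A: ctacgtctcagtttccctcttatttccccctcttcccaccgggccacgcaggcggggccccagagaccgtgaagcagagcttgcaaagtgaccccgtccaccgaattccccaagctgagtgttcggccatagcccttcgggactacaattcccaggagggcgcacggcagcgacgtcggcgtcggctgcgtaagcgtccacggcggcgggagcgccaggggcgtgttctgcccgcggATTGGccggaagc
TREX1 and RNASEH2C had no match of the 4 motifs in their windows, while both RNASEH2B windows held a CCAAT box and 1 of them a GC box.

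TREX1, the main DNA exonuclease of the cytosol, fell in both knockdowns. Its levels were 12.4, 13.9 and 12.7 scaled TPM in control, 9.83, 8.52 and 8.67 in siMENA11a and 9.70, 9.94 and 10.3 in siMENA. Both knockdowns lay below all control libraries and overlapped with each other. TREX1 fell by 0.51 ± 0.064 in siMENA11a (limma adjusted p = 0.000117) and by 0.37 ± 0.064 in siMENA (adjusted p = 0.00109). Between the knockdowns the log2 difference was -0.14 (95% interval -0.29 to 0.00095, adjusted p = 0.0816), and it was called in TPM as deposited (-0.35, adjusted p = 0.00181) and without siMENA11a 1 (-0.20, adjusted p = 0.0171). All 1515 exon bases of TREX1 in GENCODE 29 lie in exons of ATRIP on the same strand, so the split of reads between these genes is uncertain. ATRIP, a partner of the checkpoint kinase ATR, fell by 0.29 ± 0.078 in siMENA11a (adjusted p = 0.01), and its log2 difference was -0.027 in siMENA (adjusted p = 0.802). The ratio of TREX1 to ATRIP within a library was 2.34 ± 0.227 in control, 2.01 ± 0.0057 in siMENA11a and 1.82 ± 0.074 in siMENA.

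For siMENA11a against control, 6 of 7 genes tested were called, 2 higher and 4 lower, where 55.6% of all genes tested were called (27.9% higher and 27.7% lower). The libraries did not overlap for 6 of 7, where they did not for 62.9% of all genes tested. For siMENA against control, 4 of 7 were called, all lower, where 49.4% of all genes were called (23.7% higher and 25.8% lower), and 6 of 7 did not overlap, where 57.6% of all genes did not. For siMENA11a against siMENA, 5 of 7 were called, 2 higher and 3 lower, where 58.7% were called (29.5% higher and 29.2% lower), and 5 of 7 did not overlap, where 65.1% of all genes did not. The median log2 fold change of the 7 genes was -0.29, -0.26 and -0.14 in these comparisons, beside 0.015, 0.0076 and 0.00065 over all genes tested. No result about the 7 genes as a group is read from these counts. The comparisons with control share their control libraries, and all 3 use each group more than once.

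**Figure D3:**
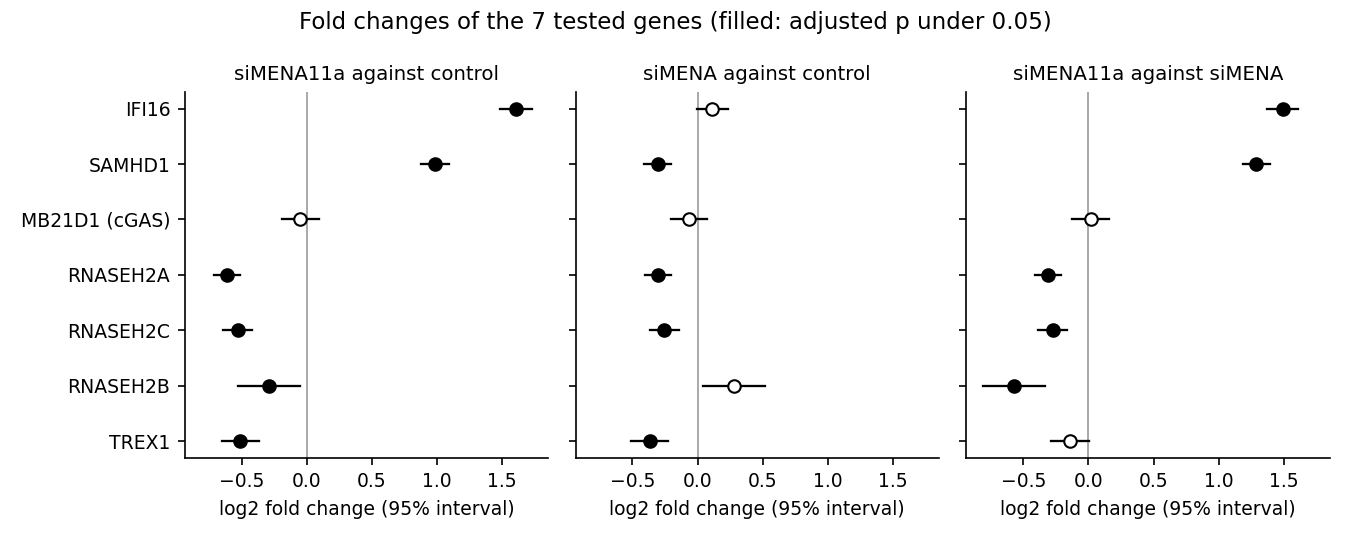
Log2 fold change (x axis) of the 7 genes tested, with its 95% interval from limma, in each of the 3 comparisons, where filled points have an adjusted p under 0.05. IFI16 and SAMHD1 lie to the right wherever siMENA11a is compared, cGAS lies at 0 within its intervals, and RNASEH2B changes side between the knockdowns.

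The siRNA target of siMENA11a is shown because short matches to an siRNA in a 3' UTR can lower other transcripts. The 63-base coding exon of ENAH taken as exon 11a lies at chr1:225504991-225505053 on the minus strand of GRCh38 and reads, from 5′ to 3′, as follows.
ENAH exon 11a: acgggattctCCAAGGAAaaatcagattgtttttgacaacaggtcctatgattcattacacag
The siRNAs themselves were not used here. Capitals mark 2 overlapping words of 7 bases, CCAAGGA and CAAGGAA, which of the 57 words of the exon had carriers with the lowest mean log2 fold change in siMENA11a against control over 11309 genes searched (the 9 genes left out). That choice used this comparison, so what follows is a description. Either word was found in the 3' UTR of 26.6% of the genes searched and of 2 of the 9 genes. In MB21D1, which was not called, CAAGGAA stands in the longest 3' UTR, and in RNASEH2B CCAAGGA stands in the 3' UTR of a shorter transcript. RNASEH2B was called lower in siMENA11a against control (-0.29, limma adjusted p = 0.0425), though not under every setting. In siMENA against control RNASEH2B was at 0.28 and not called.
MB21D1 site: agattagtCAAGGAAtaagaagc
RNASEH2B site: cacaacccCCAAGGActgcctat
RNASEH2A, RNASEH2C and TREX1, which fell in siMENA11a, hold neither word in the annotated 3' UTRs, of which that of TREX1 is 45 bases long at most. The other words of the exon were not looked up in the 9 genes, and the sequences of the siRNAs were not used. Matches of the siRNAs to these genes were thus not tested.

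Genes whose levels ran most closely with each of the 7 genes were sought among the 9017 others with a mean of at least 5 scaled TPM, by Pearson correlation of log2 values over 9 libraries, which share 3 groups and their size factors. Closest to IFI16 were HELZ2 (r = 0.997), GRAMD1B (0.997) and EIF2AK2 (0.996), the last of which encodes the RNA-activated kinase PKR. Closest to SAMHD1 were IFI6 (0.997), DTX3L (0.996) and CASP8 (0.996). Mean scaled TPM of IFI6 was 38.0 for control, 647.4 for siMENA11a and 17.2 for siMENA. Closest to RNASEH2A were the replicative helicase gene MCM5 (0.995) and BTF3 (0.994). For RNASEH2C they were ISOC1 (0.986), STMN3 (0.981) and SOGA1 (0.980), for TREX1 NELFB (0.992), OPN3 (0.980) and CLSPN (0.979), and for RNASEH2B SFXN4 (0.974), HIST1H2BG (0.947) and EXOSC3 (0.946). For MB21D1 the closest, PM20D2, reached only 0.885. Among the 7 genes themselves, r was 0.956 for IFI16 with SAMHD1, 0.943 for RNASEH2A with RNASEH2C and 0.921 for RNASEH2A with TREX1, while RNASEH2A with RNASEH2B reached 0.424.

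Around these genes, of 33 tested partners and regulators of cGAS and STING, 9 rose, 8 fell and 16 were not called in siMENA11a against control, where 27.9% of all genes tested rose and 27.7% fell (median log2 fold change -0.033, but 0.041 in TPM rescaled over genes other than small RNAs). The called genes of smallest p were HDAC3 (-1.62), a deacetylase, USP18 (0.75), which removes ISG15 from proteins, IRF7 (1.25), a factor that amplifies interferon transcription, and INSIG1 (-0.99), a regulator of sterol synthesis. TBK1 rose from 16.6 ± 1.55 to 21.7 ± 1.41 scaled TPM (0.38 ± 0.068, limma adjusted p = 0.00109) and IRF3 fell from 28.7 ± 1.7 to 23.0 ± 0.0904 (-0.31 ± 0.043, adjusted p = 0.000224), both named after their values were seen. In siMENA, 8 rose, 10 fell and 15 were not called (median -0.059, but 0.023 in TPM as deposited, where 12 rose and 3 fell), led by BANF1 (-0.32), a DNA-binding protein that competes with cGAS, NLRX1 (0.40), INSIG1 (-0.41) and ABCC1 (0.22), an exporter of the cGAS product. In siMENA11a against siMENA, 10 were higher and 12 lower, and 4 and 18 in TPM as deposited. Of all genes tested 23.7% rose and 25.8% fell in siMENA against control, and between the knockdowns 29.5% were higher and 29.2% lower.

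Of 26 other DNA sensors and inflammasome genes tested, 5 rose, 15 fell and 6 were not called in siMENA11a, where 27.7% of all genes tested fell (median -0.19). The falls numbered 17 in TPM as deposited (median -0.32), 12 in TPM rescaled over genes other than small RNAs (-0.11) and 13 after quantile normalisation (-0.12). The inflammasome cytokine gene IL18 rose from 42.2 ± 2.32 to 88.6 ± 5.96 scaled TPM (1.06 ± 0.063) and the caspase gene CASP4 from 9.22 ± 0.157 to 15.8 ± 0.959 (0.75 ± 0.068). The DNA-dependent kinase gene PRKDC fell by 0.48 ± 0.032 and the chromatin protein gene HMGB1 by 0.68 ± 0.052. PYCARD, the adaptor that AIM2 needs, was listed at no more than 0.391 scaled TPM, and ZBP1, NLRP3 and TLR9 at no more than 0.133. In siMENA, 6 rose and 9 fell (median -0.053, but 0.027 in TPM as deposited, where 8 rose and 4 fell, and 0.076 after quantile normalisation), led by the repair genes NBN (-0.61) and RAD50 (0.28), HMGB2 (-0.45) and XRCC6 (-0.20), the last at 0.017 and not called after quantile normalisation. In siMENA11a against siMENA, 5 were higher and 11 lower, and 3 and 17 in TPM as deposited. The shares over all genes tested were 23.7% higher and 25.8% lower in siMENA against control, and 29.5% and 29.2% between the knockdowns.

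Of 19 tested nucleases and clearance genes beside the 9, 2 rose, 7 fell and 10 were not called in siMENA11a. Among all genes tested 27.9% rose and 27.7% fell there. The median of the list was -0.075, but 0.030 in TPM rescaled over genes other than small RNAs. EXO1 (-0.51) and FEN1 (-0.47), nucleases of DNA repair and replication, and the lysosomal DNase gene DNASE2 (-0.57) fell. ADAR, which edits double-stranded RNA, had 103.0 ± 1.76 scaled TPM in control and 107.8 ± 1.51 in siMENA11a (0.065, limma adjusted p = 0.07), and RNASEH1 had 20.8 ± 1.22 and 21.4 ± 0.388 (adjusted p = 0.625), both named after their values were seen. In siMENA, 4 rose and 5 fell (median -0.030, but 0.051 in TPM as deposited, where 4 rose and 1 fell), led by PLD3 (0.45), FEN1 (-0.45), APEX1 (0.16) and EXO1 (-0.18). The EXO1 call ended in TPM as deposited and after TPM was rescaled over genes other than small RNAs. In siMENA11a against siMENA, 2 were higher and 7 lower, and 1 and 14 in TPM as deposited. Of all genes tested 23.7% rose and 25.8% fell in siMENA against control, and between the knockdowns 29.5% were higher and 29.2% lower.

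Of 21 tested genes of deoxynucleotide supply and of the kinases that act on SAMHD1, 4 rose, 15 fell and 2 were not called in siMENA11a, where SAMHD1 rose (median -0.29). Among all genes tested 27.9% rose and 27.7% fell there. CDK2 (-0.59), the ribonucleotide reductase gene RRM2 (-0.65) and the dUTPase gene DUT (-0.85) fell, and the mitochondrial thymidine kinase gene TK2 rose (0.57). In siMENA, where SAMHD1 fell, 4 rose and 10 fell (median -0.11, but -0.030 in TPM as deposited, where 5 rose and 8 fell, and -0.015 in TPM rescaled over genes other than small RNAs, where 6 rose and 8 fell), led by CDK6 (-1.37), the thymidylate synthase gene TYMS (-0.96), RRM2 (-0.57) and CCNA2 (-0.58), which encodes cyclin A2. In siMENA11a against siMENA, 5 were higher and 8 lower, and 2 and 13 in TPM as deposited. The shares over all genes tested were 23.7% higher and 25.8% lower in siMENA against control, and 29.5% and 29.2% between the knockdowns. Replication genes were set beside RNASEH2A and the same shares of all genes tested. They fell in 18 of 20 cases in siMENA11a with 1 higher (median -0.54), led by GINS2 (-1.14), POLE (-0.66), MCM7 (-0.65) and MCM5 (-0.61). In siMENA 16 of 20 fell and 1 rose (median -0.25), led by CDC6 (-0.51), MCM3 (-0.39), PCNA (-0.45) and GINS1 (-0.44). In TPM as deposited 11 fell and 1 rose there (median -0.17). In TPM rescaled over genes other than small RNAs 11 fell and 2 rose (median -0.155). In siMENA11a against siMENA 14 were lower and 3 higher, and 19 and 0 in TPM as deposited. After rescaling these counts were 15 and 0. RNASEH2A lay at -0.62 and -0.30 beside the reported medians of -0.54 and -0.25. In bulk RNA fewer replicating cells and less RNA per cell cannot be told apart.

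Genes that STING can switch on, which RIG-I-like receptors and interferon itself also switch on, were measured in part. Of 17 in the list, 9 passed the filter, and of these 8 rose and 1 fell in siMENA11a against control (median 2.05). OASL (mean 0.240 scaled TPM in control and 2.64 in siMENA11a) and CCL5 (0.562 and 19.0) passed only through siMENA11a, and the median is that of OASL, so neither count nor median describes the whole list. With no filter 14 were tested, of which 9 rose and 2 fell (median 0.90), and in siMENA 0 rose and 4 fell (median -0.19). MX1 (3.43), IFIT1 (2.59), ISG15 (2.39) and the chemokine gene CCL5 (4.22) had the smallest p, and IL6 was the 1 that fell (-0.57). In siMENA, 0 of the 9 rose and 6 fell (median -0.33), led by IFIT1 (-0.51), IL6 (-0.24), MX1 (-0.36) and CCL20 (-0.47), with 3 falls left in TPM as deposited and 3 without control 2. The IL6 call ended under all 3 other scalings, that of MX1 in TPM as deposited, without control 2 (-0.33, limma adjusted p = 0.0575) and without siMENA 1 (-0.26, adjusted p = 0.0564), and the CCL20 call ended without control 1 (-0.44, adjusted p = 0.0612) or without siMENA 3 (-0.31, adjusted p = 0.0516). In siMENA11a against siMENA, 8 were higher and 1 lower. Among all genes that passed the filter, 27.9% rose and 27.7% fell in siMENA11a against control, and 23.7% rose and 25.8% fell in siMENA. Between the knockdowns 29.5% were higher and 29.2% lower. The interferon genes IFNL2 and IFNL3 were listed at 0 in all 9 libraries, and IFNB1 and IFNL1 at 0 except in siMENA11a 2, with 0.088 and 0.165 scaled TPM. Of the 14 falls named for siMENA11a in these 6 lists, 6 (HDAC3, INSIG1, DNASE2, CDK2, DUT and GINS2) hold CCAAGGA or CAAGGAA in the 3' UTR, beside 26.6% of all genes searched. The other words of the exon were not searched in these genes. Both words were picked for the low fold changes of their carriers in this comparison, to which these genes belong, so nothing is read from the count.

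**Figure D4:**
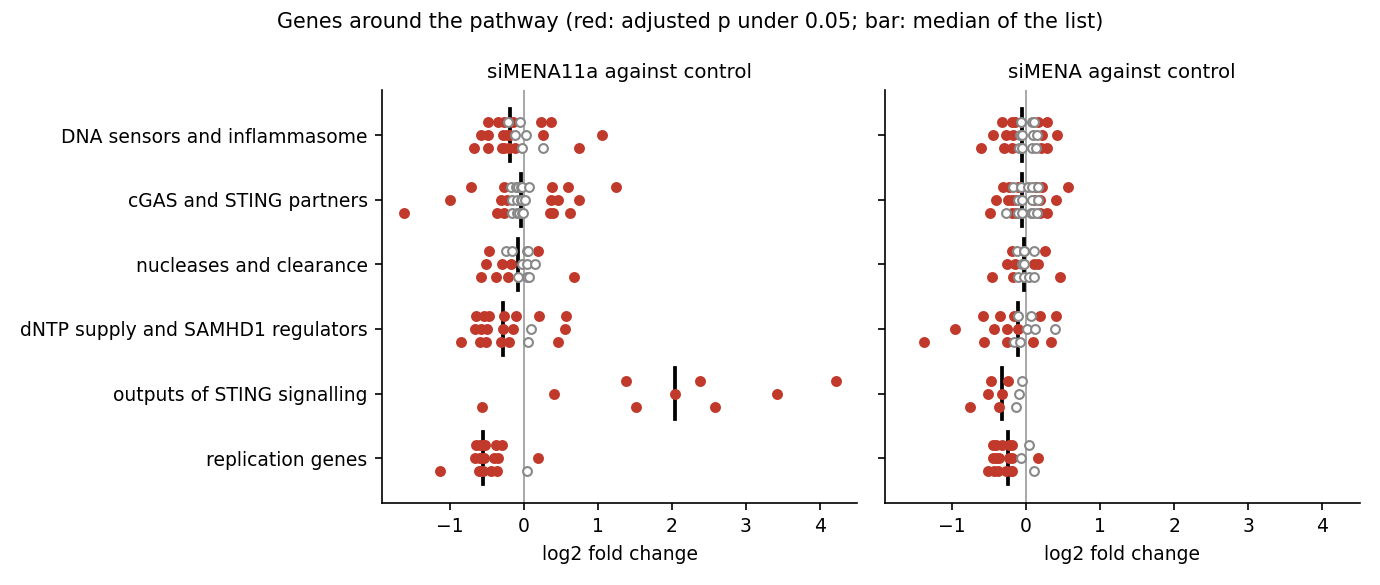
Log2 fold change (x axis) of each tested gene in 6 lists around the pathway, for both knockdowns against control, with red points at an adjusted p under 0.05 and a black bar at the median of the list. For the 9 of 17 genes that STING can switch on which passed the filter, the bar lies at 2.05 in siMENA11a and -0.33 in siMENA (0.90 and -0.19 over 14 genes with no filter), and the median of the replication list lies below 0 in both.

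**Figure D5:**
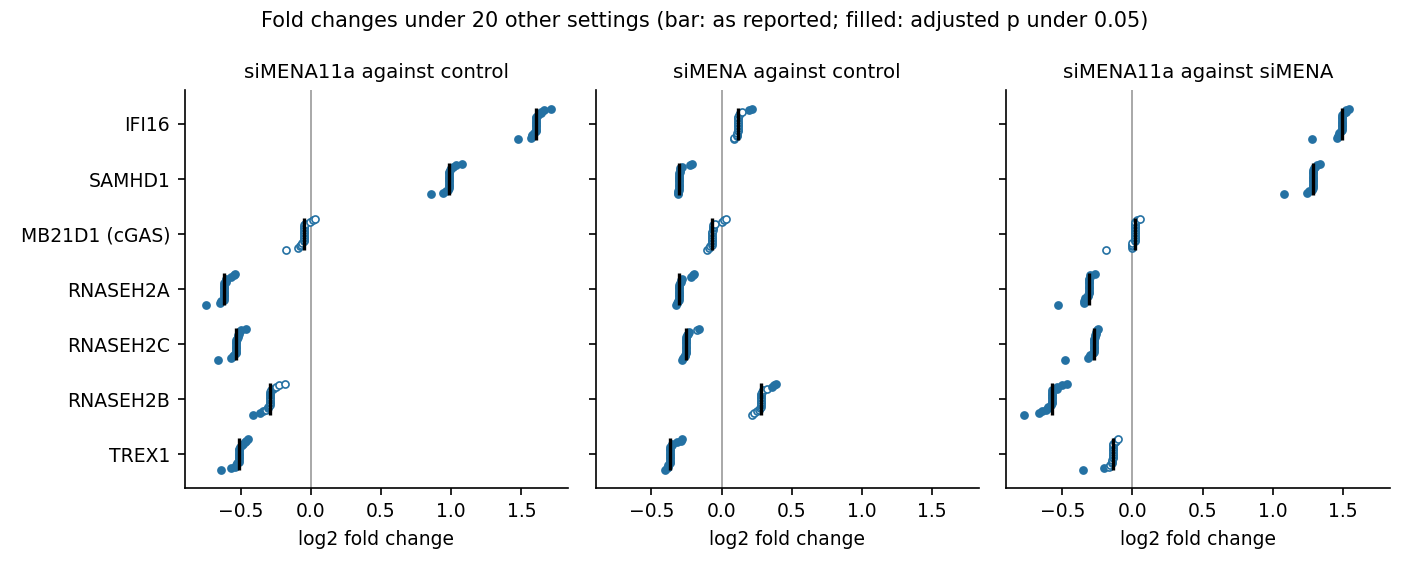
Log2 fold change (x axis) of the 7 genes as reported (black bar) and under 20 other settings (points, filled at an adjusted p under 0.05) in the 3 comparisons. IFI16 and SAMHD1 stay filled wherever siMENA11a is compared, and RNASEH2B holds filled and open points in both comparisons with control.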

How the data were processed

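RNA of 9 libraries was measured, 3 in each of 3 groups. Per the labels' protocols, DNase-treated total RNA went through ribosomal depletion into stranded libraries for paired-end sequencing. The authors deposited 1 table of TPM values per gene, rounded to 2 decimals, in which each library sums to 1000000. Its name points to RSEM, and kallisto and GRCh37 are listed without a role, per the submitters' processing notes. The aligner and whether strand was used were not found in these sources. Every value column belongs to 1 of the 9 libraries. No 2 libraries held identical values.

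TPM was divided by size factors, the median of ratios over 12341 genes (mean TPM of 1 or more, above 0 in every library). A filter on mean scaled TPM at 0.5 left 13498 genes. Group means on log2(scaled TPM + 0.5) were compared by limma 3.58.1 (R 4.3.3) in a single model of all 9 libraries, with trended eBayes and no block, with Benjamini-Hochberg adjustment over all genes of a comparison and a threshold of 0.05. The scripts were tested on simulated data. The 20 other settings changed pseudocount, filter, scaling, eBayes, samples or block. Named were the 9 genes, ENAH, up to 4 called genes of smallest adjusted p per list and knockdown against control, and the 3 closest genes per tested gene, of which some are not reported here. The genes, lists and tests were chosen with earlier results of these data known. Sequences come from RefSeq (GRCh38.p14 promoters) and GENCODE 29 transcripts (GRCh38), matched by symbol, and were not lifted to GRCh37.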

Additional observations from a re-analysis of the deposited data

How the results depend on the processing

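Of the 7 genes tested, IFI16, SAMHD1, RNASEH2A, RNASEH2C and TREX1 kept their call for siMENA11a against control under all 20 settings, with log2 fold changes of 1.48 to 1.71, 0.85 to 1.07, -0.75 to -0.54, -0.66 to -0.47 and -0.64 to -0.45. For siMENA against control SAMHD1 (-0.31 to -0.21), RNASEH2A (-0.33 to -0.20) and TREX1 (-0.40 to -0.28) did too. The number of the 9 genes called stayed within 1.5 times that reported under every setting, 5 or 6 for siMENA11a against control and 4 to 6 for siMENA against control. Between the knockdowns it was 5 or 6. Genes called of all tested numbered 5863 to 7894 for siMENA11a against control, 5319 to 7264 for siMENA against control and 6185 to 8351 between the knockdowns. The number tested changed with the setting, so these counts are not shares of the same genes. Each lowest count came from the filter at a mean of 5 scaled TPM, which left 9018 genes. With no filter 20186 genes were tested, of which 7565, 6549 and 8177 were called in the same order. MB21D1, never called, changed sign: for siMENA11a against control at 0.026 in TPM rescaled over genes other than small RNAs and 0.015 without control 2 (-0.091 to 0.015 over the libraries left out); for siMENA against control at 0.015 in TPM as deposited and 0.031 in TPM rescaled; and for siMENA11a against siMENA at -0.19 in TPM as deposited, -0.0043 in TPM rescaled, and -0.0062 without siMENA 1, -0.0046 without siMENA11a 1 and -0.00036 without siMENA11a 3 (up to 0.057 without other libraries). XRCC6 changed sign in siMENA after quantile normalisation (0.017). The causes were not tested. Of 48 results for named genes of the lists, 43 kept their call under every setting run.

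Replicate numbers are shared between groups, but same-numbered libraries did not deviate together (r of -0.065 to 0.058 over 9 pairs, and 3 of 9 libraries were closest to their own number). This cannot exclude a shared culture or day, and the labels state no block. With the replicate block 7309 genes were called for siMENA11a against control, 6386 for siMENA against control and 7732 for siMENA11a against siMENA. Of the 9 genes 5, 4 and 5 were called, and RNASEH2B in siMENA11a was the one lost (-0.29, limma adjusted p = 0.075). Higher genes made up 28.6% of calls for siMENA11a against control in TPM as deposited and 63.1% in TPM rescaled, against 50.2%; 63.4% and 66.1% for siMENA against control, against 47.9%; and 24.3% and 47.6% between the knockdowns, against 50.3%. TPM keeps no depth, so no counting error can be given for TMEM173 and other low genes.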
